A study of Mus musculus with 359 samples.

Results

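The libraries described here are lung RNA of B6C3F1 mice, male and female, that ate feed with 150 or 300 ppm of 4-methylimidazole (4-MEI) for 5 or 28 days, set against lung of mice given vehicle feed, whose libraries are labelled VC. They were chosen by tissue, day and dose in the library names, and both doses were pooled. At each day there were 24 low-dose libraries (6 for each dose and sex) and 12 VC libraries (6 for each sex), which makes 72 of the 359 libraries of the series. The series also holds liver of the same feed groups, lung and liver at 1250 and 2500 ppm, and mice dosed by gavage for 2 days. The age of the mice is not given in the sources used here, and no label says that a library pools animals. The question asked of these libraries was whether the lowest feed doses left a measurable trace in lung RNA, and whether that trace differed between days, sexes and doses.

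4-MEI is a nitrogen heterocycle that forms when sugars are heated with ammonia, as in some caramel colourings, and the mouse lung is known as a tissue in which long feeding gave tumours. Lung airways hold club cells rich in cytochrome P450 enzymes, which can turn inhaled or blood-borne chemicals into reactive products. Cells answer such products largely through NRF2, a transcription factor that is held in the cytoplasm by KEAP1 and, once KEAP1 is modified, enters the nucleus and raises genes of glutathione synthesis, conjugation and quinone reduction. Nqo1, which reduces quinones, is also a target of AHR, the receptor that raises the Cyp1 enzymes. Slc7a11, the cystine carrier that feeds glutathione synthesis, answers to NRF2 and to ATF4, the factor of the amino acid response.

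Library totals lay between 14049600 and 19134400 counts in the day 5 low-dose libraries, against 13822000 to 21473100 in VC, and between 12854200 and 16500200 in the day 28 low-dose libraries, against 12262700 to 15795900 in VC. The total did not differ beyond the spread at either day (two-sided permutation test, p = 0.391 at day 5 and p = 0.116 at day 28). The genes of the Y chromosome and Xist matched the sex in the name in 36 of 36 libraries at each day. At day 28 the separate description fields of 30 of the 36 libraries gave another dose than the library name, and those of 12 gave another sex, so groups were taken from the names. Some libraries stood apart in genes of tissues that lie beside the lung or can come with it. Skeletal muscle markers summed to 2373 CPM (counts scaled to the effective library size) in 1 of the 300 ppm males and to 1929 in VC female 90 at day 5, and to 1603 in VC female 176 at day 28. Squamous oesophagus markers summed to 4573 CPM in that 300 ppm male and to 2569 in VC female 90. Their medians at day 5 were 0.598 CPM in the low-dose and 0.58 CPM in the VC libraries. Adipocyte markers summed to 5743 CPM in VC female 171 at day 28. VC female 176 also had 3599 CPM of alveolar macrophage markers, next to 1317 in the library below it. The 150 ppm male number 98 at day 5 had 119529 CPM of club cell markers, next to 57626 in the library below it.

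At day 28 a small set of genes differed between the low feed doses and VC. Of 15240 genes tested, 17 were higher and 9 were lower (edgeR quasi-likelihood test with sex as a factor, Benjamini-Hochberg adjusted p under 0.05), which is 0.171% of the genes, 0.112% higher and 0.0591% lower. The higher genes held 3 targets of NRF2 (Nqo1, Slc7a11 and Gstm1), 5 ribosomal protein genes, the RNA-binding protein gene Ybx1 and the cytokine gene Il1f9. The lower genes held Serpina3k and Ttr, whose products are secreted by the liver, and the inducible chaperone gene Hspa1b. Outside Serpina3k, Ttr and Hspa1b no log2 fold change of the 26 was above 0.67 in size, and no gene had separate ranges of CPM in the 24 low-dose and the 12 VC libraries (0 of 15240, 0.0%).

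At day 5 no gene passed the same test (0 of 15253, 0.0%, with 793 genes or 5.2% at an unadjusted p under 0.05, 381 higher and 412 lower). DESeq2 called 1 gene higher and 2 lower there (0.0197%). At day 28 the unadjusted count was 1771 genes or 11.6%, 798 higher and 973 lower, and DESeq2 called 37 higher and 28 lower (0.427%).

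The count at day 28 turned on single VC libraries. No gene passed when VC male 162, VC male 164 or VC female 170 was left out, 3 passed without VC male 161, 3 without VC female 171, 5 without VC female 169 and 14 without VC male 167. More genes passed without VC female 176 (35 higher and 19 lower, 54 in all, 0.353%) and without VC male 168 (49 in all). Leaving out 1 low-dose library left between 6 and 34 calls: 6 without 300 ppm male 197, 11 without 300 ppm female 206, 12 without 150 ppm male 183, 14 without 150 ppm male 184, 15 without 300 ppm female 202 or 207, and 17 without 150 ppm male 180 or 300 ppm male 194 or 195. All 26 genes called in the full set were also called without number 176, and all kept their sign in every one of the 36 fits with a library left out. With the trend of each library on exon length removed, 11 genes were higher and 11 lower (0.15%), 17 of them among the 26. The share of higher calls was then 50% in place of 65.4%. Exon length here is that of all annotated exons of a gene joined, which can exceed the length of its transcripts, so the removal is only approximate for such genes. Nothing in the labels says how animals and libraries correspond beyond 1 number for each library, so these p-values measure the spread between the libraries.

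**Figure D1:**
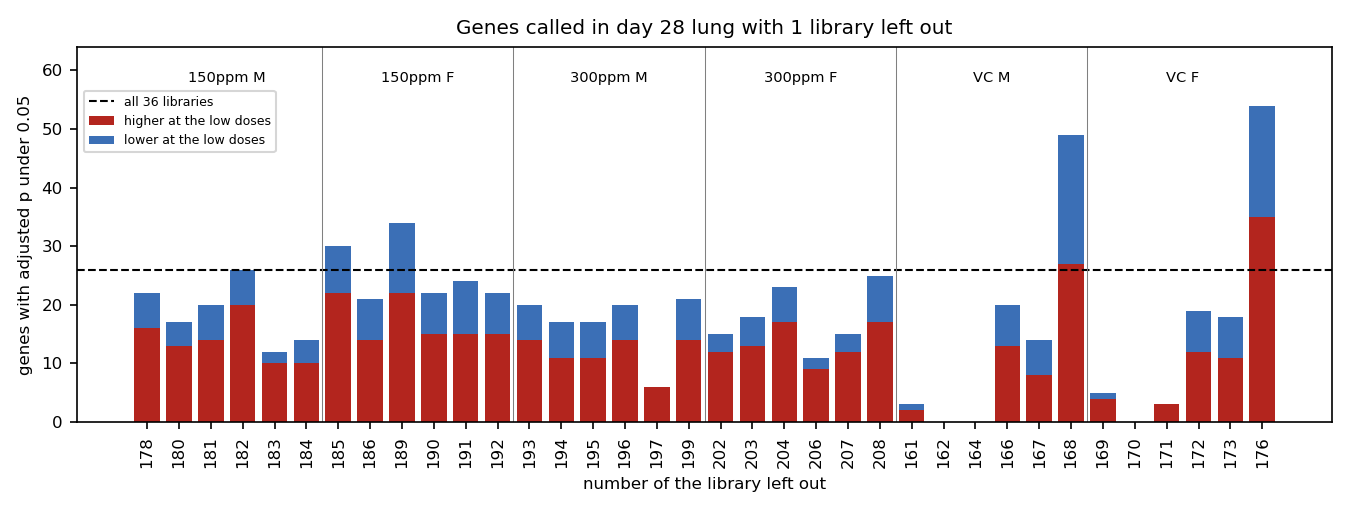
Number of genes past the threshold at day 28, low feed doses against VC, with 1 library left out at a time (x axis, group and number of the library left out; bars up to the count of higher genes in red and lower genes in blue, stacked; dashed line at the count of 26 in the full set). The bars reach 0 without VC M 162, VC M 164 and VC F 170 and 54 without VC F 176.

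The NRF2 targets that rose at day 28 are described first. Nqo1 (chromosome 8, 107388225 to 107403206, minus strand, mm10) had a lowest, median and highest level of 8.60, 15.6 and 22.5 CPM in the low-dose libraries, against 7.19, 10.3 and 18.1 CPM in VC. Much of that spread lay between the sexes. In males the low-dose libraries had 14.3, 18.5 and 22.5 CPM, against 10.6, 14.3 and 18.1 CPM in VC, and 7 of 12 stood above every VC male. In females the low-dose libraries had 8.60, 11.7 and 16.01 CPM, against 7.19, 8.91 and 9.997 CPM in VC, and 11 of 12 stood above every VC female. The ranges overlapped in both sexes, and Nqo1 was 1.34-fold higher (log2 fold change 0.42 ± 0.0788 (SE), n = 24 and 12, adjusted p = 0.0304, edgeR).

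Gstm1 (chromosome 3, 108012255 to 108017973, minus strand), which joins glutathione to electrophiles, had 235, 295 and 336 CPM in the low-dose libraries, against 213, 252 and 284 CPM in VC. The ranges overlapped, with 15 of 24 low-dose libraries above every VC library and 20 above the VC median. Gstm1 was 1.16-fold higher (log2 fold change 0.22 ± 0.0428, adjusted p = 0.0304, edgeR). With the length trend removed it missed the threshold (log2 fold change 0.19, adjusted p = 0.0576, edgeR). Gstm2, its neighbour in the family, which is near in sequence so that reads may be split between them, was not called (log2 fold change 0.20, adjusted p = 0.082, edgeR).

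Slc7a11 (chromosome 3, 49892526 to 50443614, minus strand) had 11.4, 13.97 and 17.5 CPM in the low-dose libraries, against 6.93, 11.4 and 13.4 CPM in VC. All 24 low-dose libraries stood above the VC median and 17 stood above every VC library, while the lower end of the low-dose range lay within that of VC. Slc7a11 was 1.28-fold higher (log2 fold change 0.35 ± 0.0705, adjusted p = 0.0304, edgeR). Of the 36 fits with a library left out, 31 kept the call for each of Nqo1, Gstm1 and Slc7a11, and their highest adjusted p was 0.0751, without VC male 164.

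Club cells are known to express Gstm1 and other conjugating enzymes at a high level. The 8 club cell markers summed to 28475, 44936 and 73781 CPM in the low-dose libraries, against 28970, 45159 and 58103 CPM in VC, with the highest sums in 150 ppm males 184 and 183, and their part in these results was not tested.

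The window around the start of Slc7a11 is shown because it holds the letters of the element through which ATF4 is known to raise this gene. The sequence is from RefSeq on GRCm38.p6, chr3:50443564-50443863, minus strand, from 250 bases before the start to 50 after it, and the capitals mark both matches to TGATGNAA, searched on both strands.
Slc7a11: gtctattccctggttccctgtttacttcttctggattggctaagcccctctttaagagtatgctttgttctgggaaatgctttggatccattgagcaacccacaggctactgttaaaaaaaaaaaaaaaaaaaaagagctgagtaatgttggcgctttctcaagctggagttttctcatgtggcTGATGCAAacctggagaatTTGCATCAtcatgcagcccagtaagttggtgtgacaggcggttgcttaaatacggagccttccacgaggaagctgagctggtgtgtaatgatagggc
These letters were found in 3.97% of the 32851 windows of the same length in the table. The core of the antioxidant response element that NRF2 and its small MAF partners bind, TGACNNNGC on either strand, was found in 12.4% of all windows. It stood in a window of 4 of the 11 NRF2 targets with a window, Srxn1, Gclm, 1 start of Txnrd1 and G6pdx. This is a count of genes, of which some have more than 1 window, so it cannot be set directly against the share of windows. The windows of Nqo1, Gstm1 and Slc7a11 held no match, and a match or its absence in this window says nothing of a distant element.

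No other NRF2 target passed the threshold. The list held 14 genes, of which 13 passed the filter on low counts, Gsta1 being the one that did not. Of these 13, 3 were higher, none was lower, and 13 had a log2 fold change above 0, against 48.7% of all genes tested. The median log2 fold change was 0.15, beside -0.0029 for all genes. The list was chosen with earlier results of these data known, so these values are no independent support. Gclm, the modifier subunit of the enzyme that starts glutathione synthesis, had a log2 fold change of 0.14 (unadjusted p = 0.0322, adjusted p = 0.377, edgeR), and Gclc, its catalytic subunit, one of 0.05 (adjusted p = 0.705). Srxn1, which repairs oxidised peroxiredoxins, had 0.09, the glutathione transferases Gsta4 and Gsta2 had 0.20 and 0.30, and Osgin1 had 0.15, all on the log2 scale and none past the threshold. Hmox1, the haem-degrading enzyme that is widely used as a mark of oxidative stress, had 0.03 (adjusted p = 0.836, edgeR), and the thioredoxin reductase gene Txnrd1 had 0.06. With 1 library left out, 0 to 3 of the 13 were called higher, 12 or 13 were above 0 and the median was between 0.11 and 0.22, the highest without VC female 176. With the length trend removed, 2 were called and 11 were above 0.

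Ces1g, a carboxylesterase on the NRF2 list, had the largest fold change of it without a call. Its levels were 7.28, 18.4 and 32.4 CPM in the low-dose libraries, against 5.43, 13.1 and 22.4 CPM in VC. The ranges overlapped widely, and 5 of the 24 low-dose libraries stood above every VC library. The log2 fold change was 0.58 ± 0.1516 (adjusted p = 0.117, edgeR).

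**Figure D2:**
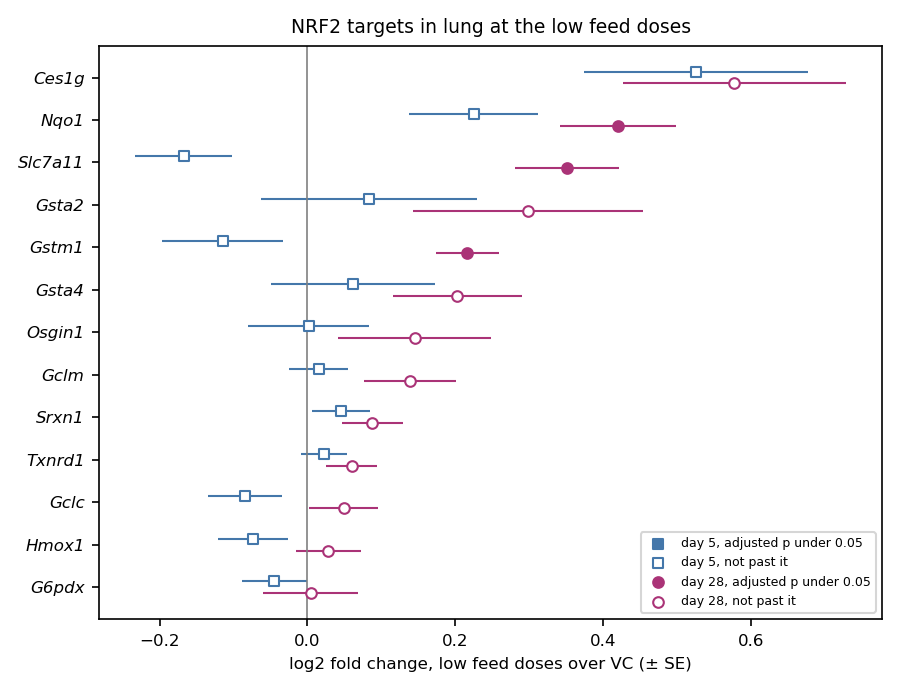
Log2 fold change with its standard error of the 13 NRF2 targets tested, low feed doses over VC, at day 5 (blue squares) and day 28 (purple circles), where filled symbols passed the threshold. At day 28 all 13 lie above 0 and Nqo1, Slc7a11 and Gstm1 are filled; at day 5, 8 of 13 lie above 0 and none is filled.

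The list of AHR targets was short and shares Nqo1 with the NRF2 list. Of 7 genes on the list, 5 were tested, and Nqo1 was the one that passed, with 2 of 5 above 0. With 1 library left out, 2 or 3 were above 0 and the median log2 fold change was between -0.08 and 0.18. Cyp1b1, a cytochrome P450 that AHR raises, had 13.7, 19.2 and 24.6 CPM in the low-dose libraries, against 12.6, 17.1 and 45.5 CPM in VC. Its log2 fold change was -0.06 (adjusted p = 0.88, edgeR), and 0.15 (adjusted p = 0.619, edgeR) without VC female 171, which held the highest value. Cyp1a1, the most AHR-dependent member, had a log2 fold change of -0.11 ± 0.4069 (adjusted p = 0.942, edgeR).

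Of the 17 higher genes at day 28, 5 encode proteins of the cytosolic ribosome, a grouping made after their values were seen. Rpl35a, a protein of the large ribosomal subunit, had 11.9, 14.4 and 19.6 CPM in the low-dose libraries, against 9.47, 11.4 and 15.2 CPM in VC. All 24 low-dose libraries stood above the VC median and 10 above every VC library, and the highest VC value belonged to number 176. The log2 fold change was 0.40 ± 0.0733 (adjusted p = 0.0304, edgeR), and 33 of 36 fits with a library left out kept the call. Rps26, a protein of the small subunit, had 18.4, 21.4 and 26.1 CPM in low-dose males, against 13.01, 16.2 and 17.1 CPM in VC males. It was the 1 gene of 15240 (0.00656%) whose ranges in males did not overlap, while in females its low-dose range of 16.4 to 25.4 CPM overlapped the 15.4 to 23.7 CPM of VC. In females 1 other gene (0.00656%) had separate ranges, Hpgds, with 4.08 to 6.10 CPM against 2.98 to 3.87 CPM in VC. How many such genes would arise by chance was not tested. Over both sexes Rps26 had a log2 fold change of 0.34 ± 0.066 (adjusted p = 0.0304, edgeR).

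Rpl32 (0.33), Rps24 (0.31) and Rpl7a (0.26) of the cytosolic ribosome and Mrpl32 (0.30) of the mitochondrial one were also higher, in log2 fold change. Ribosomal protein genes have many near-identical processed copies in the genome, and how reads that fit several copies were counted is not given in the sources used here, so these values are uncertain. None of the 20 genes of a separate ribosomal protein list, which does not hold these 5 cytosolic ones, passed, 11 were above 0 and their median log2 fold change was 0.02, with a range of 0.0015 to 0.05 when 1 library was left out. Ribosomal protein mRNAs are known for a run of pyrimidines at their 5′ end, through which their translation is set. The start regions of 4 of the called genes are shown for that run (RefSeq, GRCm38.p6, 15 bases before and 15 from the start), with the longest stretch of 7 or more C or T in capitals.
Rpl35a, chr16:33056467-33056496, plus strand: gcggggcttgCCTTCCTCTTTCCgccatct
Rps26, chr10:128626492-128626521, minus strand: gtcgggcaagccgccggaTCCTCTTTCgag
Rps24, chr14:24490663-24490692, plus strand: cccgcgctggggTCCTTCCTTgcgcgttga
Rpl7a, chr2:26910792-26910821, plus strand: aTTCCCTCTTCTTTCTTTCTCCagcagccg
A run of this length stood in 18.6% of the 32851 start windows of the same size. Only start windows that held such a run were picked for printing, so the windows shown cannot be set against that share.

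Ybx1, which binds mRNA and holds it from translation, had 214, 264 and 330 CPM in the low-dose libraries, against 187, 210 and 286 CPM in VC. All 24 low-dose libraries stood above the VC median, and 8 stood above every VC library. Its log2 fold change was 0.27 ± 0.0581 (adjusted p = 0.0375, edgeR). Cwc15 (0.25) and Sugp1 (0.20) encode splicing factors, Rpap3 (0.24) a co-chaperone of large RNA-processing complexes, Myl12b (0.19) a light chain of non-muscle myosin and Agbl3 (0.26) a peptidase that trims glutamates from tubulin. Gm6642, a transcribed pseudogene by its RefSeq type, had a log2 fold change of 0.52.

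Il1f9 encodes IL-36 gamma, a cytokine of epithelial cells, and was low throughout. It had 1.28, 2.53 and 4.34 CPM in the low-dose libraries, against 0.654, 1.39 and 2.79 CPM in VC. The ranges overlapped, with 7 of 24 low-dose libraries above every VC library. The log2 fold change was 0.67 ± 0.1513 (adjusted p = 0.0471, edgeR), and 9 of 36 fits with a library left out kept the call.

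**Figure D3:**
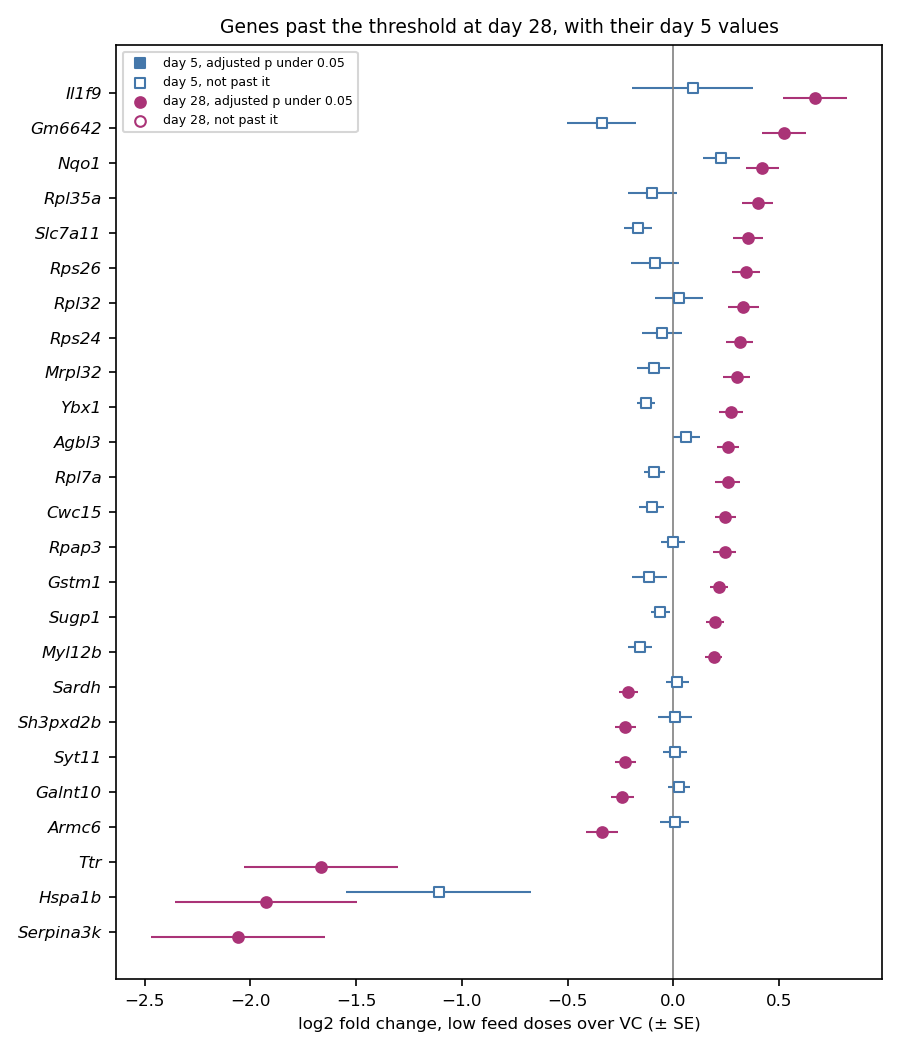
Log2 fold change with its standard error, low feed doses over VC, of 25 of the 26 genes past the threshold at day 28 (purple circles) and the same genes at day 5 (blue squares; Ttr and Serpina3k were not tested there). The 17 higher genes lie between 0.19 and 0.67 and the 8 lower ones shown between -0.21 and -2.06 at day 28, and no gene is past the threshold at day 5.

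Among the lower genes, Hspa1b (chromosome 17, 34956436 to 34959238, minus strand) encodes the inducible HSP70 chaperone. It had 6.43, 12.9 and 56.2 CPM in the low-dose libraries, against 5.43, 25.7 and 328 CPM in VC. The low-dose range lay within that of VC, which was wide: the highest VC values were 328 CPM in male 162, 143.6 in male 164 and 112.7 in female 171. The log2 fold change was -1.93 ± 0.4291 (adjusted p = 0.0471, edgeR), and it was -1.41 (adjusted p = 0.193, edgeR) without male 162. Hspa1a, a near-identical copy that shares reads with it, had -1.77 (adjusted p = 0.0734, edgeR).

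The start of Hspa1b is shown for the paired heat shock element, GAANNTTC, to which HSF1 is known to bind (chr17:34959189-34959488, minus strand, GRCm38.p6, RefSeq, the match in capitals).
Hspa1b: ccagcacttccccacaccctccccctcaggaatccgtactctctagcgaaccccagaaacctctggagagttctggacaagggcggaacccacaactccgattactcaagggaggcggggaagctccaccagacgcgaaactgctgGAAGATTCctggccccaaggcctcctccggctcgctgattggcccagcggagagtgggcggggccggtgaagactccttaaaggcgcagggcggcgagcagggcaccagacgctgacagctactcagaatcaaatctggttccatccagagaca
The element was found in 7.86% of all windows, Hspa1a included.

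The other heat shock chaperones were not called. Of 14 tested, 1 was lower, none was higher and 1 was above 0. At an unadjusted p under 0.05 (edgeR) 10 were lower, against 6.38% of all genes tested. The median log2 fold change was -0.38, beside -0.0029 for all genes. With 1 library left out, 0 to 2 were called lower and the median was between -0.42 and -0.24, with -0.24 reached without VC female 171. Hsph1, an exchange factor of HSP70, had -0.77 (adjusted p = 0.193, edgeR), and the HSP40 cochaperones Dnaja1 and Dnajb1 had -0.41 and -0.42, neither past the threshold. Their sum over the list was 2141, 2481 and 3863 CPM in the low-dose libraries (lowest, median and highest), against 2301, 2654 and 5367 CPM in VC. The high VC sums came from female 171 (5367 CPM), male 164 (5084 CPM) and male 162 (4592 CPM), and the next VC library, female 170, had 2917 CPM. Leaving out 1 library at a time keeps the others of these in the fit, so the lower values of the list rest largely on few VC libraries.

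Serpina3k, a secreted protease inhibitor of hepatocytes, had 0, 0.431 and 1.99 CPM in the low-dose libraries, against 0.131, 1.13 and 7.27 CPM in VC. Ttr, the thyroid hormone carrier that liver secretes, had 0, 0.216 and 0.951 CPM in the low-dose libraries, against 0.0654, 0.908 and 2.94 CPM in VC. In both genes the low-dose values sat at the low end of VC, no low-dose library exceeded the highest VC one, and the top VC values came from males 162 and 164 and female 171. Serpina3k had a log2 fold change of -2.06 ± 0.4107 (adjusted p = 0.0304, edgeR) and Ttr one of -1.67 ± 0.3633 (adjusted p = 0.0418, edgeR). At these levels many low-dose libraries held only a few counts of either gene.

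The defining markers of hepatocytes went the same way. The list held 6 genes, of which 4 passed the filter (Alb, Apoa1, Ahsg and Ttr), 1 was lower, and none was above 0. A gene that is near 0 in one group passes the filter through the other, so this count carries little beside the values. Albumin, Alb, had 1.81, 3.98 and 19.9 CPM in the low-dose libraries, against 2.62, 11.9 and 38.3 CPM in VC (log2 fold change -1.45, adjusted p = 0.082, edgeR). Summed over all 6 markers the level was 3.54, 5.62 and 25.8 CPM in the low-dose libraries, against 4.12, 15.7 and 53.3 CPM in VC (two-sided permutation test, p = 0.00172, adjusted p = 0.0172 over 10 library measures). The difference of means was -14.2 CPM in males (exact permutation test, p = 0.0667) and -10.9 CPM in females (exact permutation test, p = 0.0097). The hepatocyte sum was the only marker sum tested, so the adjustment covers no other marker sum. It includes Ttr, which was called in the same libraries, so these tests are no separate support for that call. The part of hepatocyte RNA in the result for Serpina3k and Ttr was not tested.

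The other lower genes described here had small changes. Syt11, a synaptotagmin of vesicle traffic, and Sh3pxd2b, an adaptor of podosomes, had log2 fold changes of -0.23 each, and 0 of 24 low-dose libraries stood above the VC median in either. Galnt10, which starts O-glycan chains, had -0.24, Armc6 had -0.34, and Sardh, a mitochondrial sarcosine dehydrogenase, had -0.21.

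**Figure D4:**
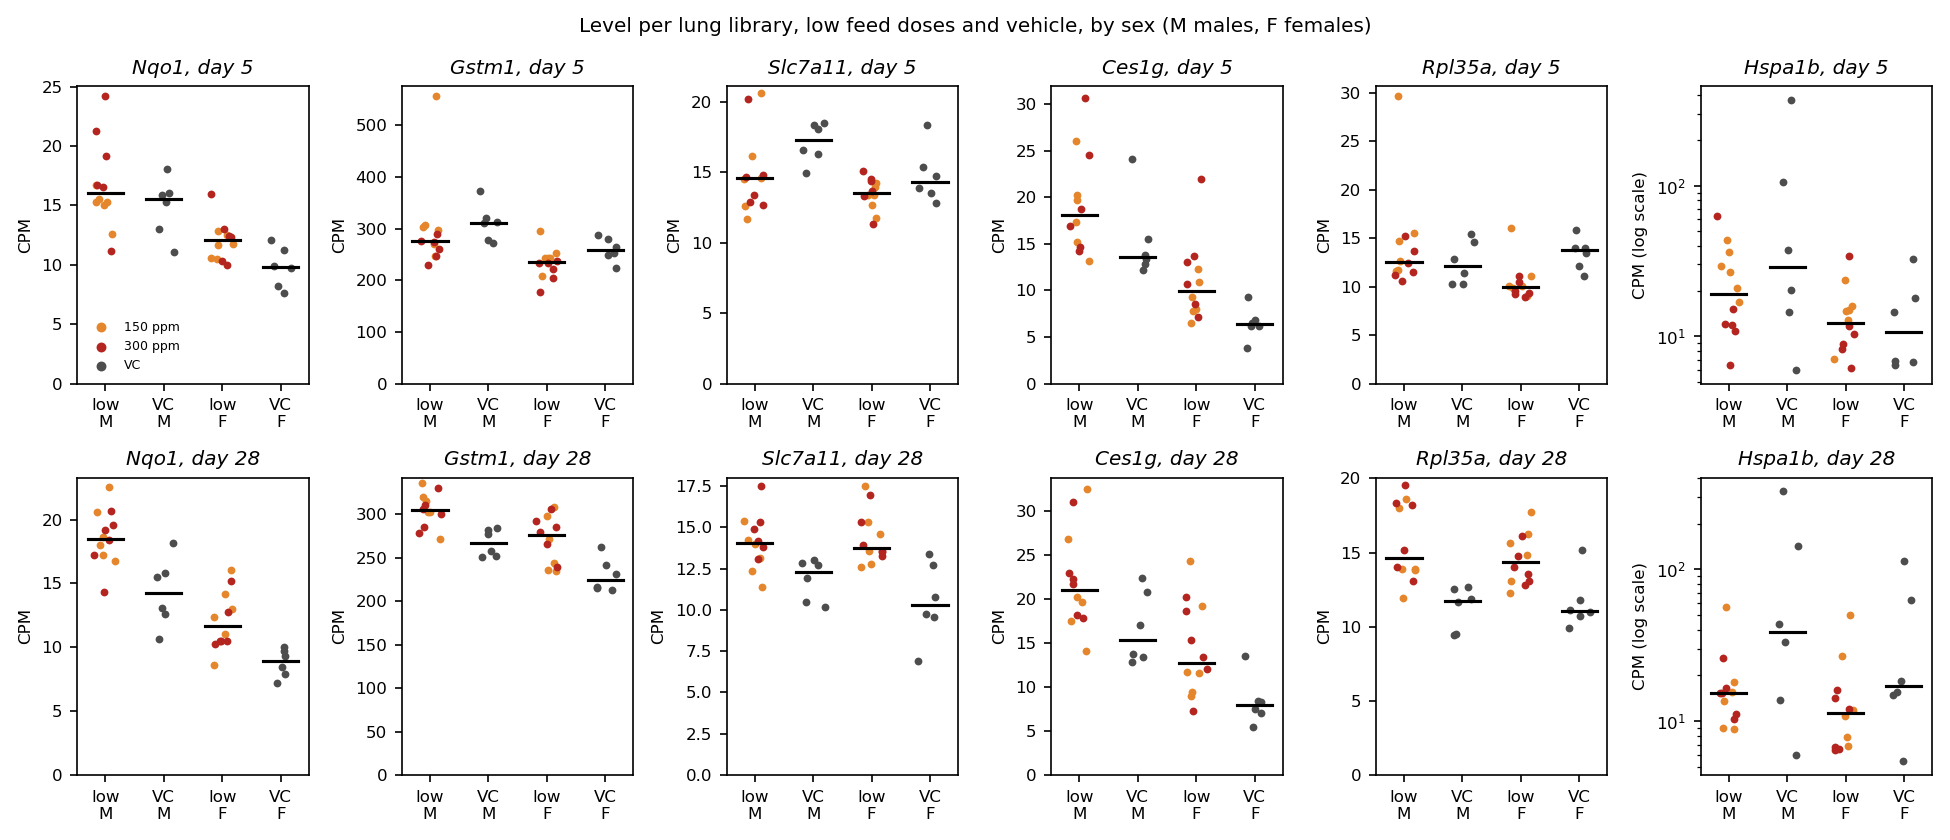
Level in CPM of 6 genes in each lung library at day 5 (top row) and day 28 (bottom row), with low-dose libraries left of VC for males and then females (orange 150 ppm, red 300 ppm, grey VC; black line, median; the last panel has a log axis). At day 28 Slc7a11 and Rpl35a sit above the VC median in all 24 low-dose libraries, and Hspa1b is widest in VC, up to 328 CPM.

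Among cell type markers few genes were called at day 28. Of 27 marker lists, 26 held no called gene. The club cell list had 8 of 8 members above 0 (median log2 fold change 0.19), the ciliated list 10 of 10 (0.20), and cytotoxic lymphocytes 10 of 10 (0.23), with none past the threshold. Alveolar type 2 markers, which include the surfactant genes, had 0 of 11 above 0 (median -0.09), and B cell markers 0 of 10 (-0.13). Without VC female 171 the B cell median was 0.12 and 10 of 10 were above 0. Skeletal muscle markers had a median of -1.56 and adipocyte markers one of -1.32, with none past the threshold, and each rested on 1 library: the skeletal muscle median was 0.05 without VC female 176, and the adipocyte median was 0.26 without VC female 171. In whole lung, fewer cells of a type and less RNA per cell cannot be told apart. Of 22 pathway lists, 19 held no called gene. Extracellular matrix genes had 0 of 16 above 0 (median -0.22) and fatty acid synthesis genes 1 of 15 (-0.26). The fatty acid synthesis values rested on VC female 171, without which 7 of 15 were above 0 and the median was -0.0065. Cytochrome P450 and conjugation genes had 18 of 20 above 0 (0.06, or 0.10 without VC male 168, 0.11 without VC female 171 and 0.04 without 300 ppm female 208).

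At day 5 the genes nearest to a call were others. Rsu1, an adhesion protein of the integrin complex, had 96.4, 126.8 and 137.8 CPM in the low-dose libraries, against 128.7, 140.7 and 157.1 CPM in VC. No low-dose library reached the VC median and 15 stood below every VC library. Its log2 fold change was -0.17 ± 0.0346 (adjusted p = 0.228, edgeR), and without 150 ppm male 98 its adjusted p was 0.00946, the 1 call of that fit (0.00656%). Ptbp1, a splicing regulator, likewise had 0 of 24 low-dose libraries above the VC median (156.2, 174 and 187 CPM in the low-dose libraries, against 177, 189 and 205 CPM in VC; log2 fold change -0.12, adjusted p = 0.245, edgeR). In males 4 genes had separate ranges at day 5 (0.0262%), all lower: Rsu1, Nono, Pde4d and Supv3l1.

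The other genes named at day 5 for their small unadjusted p also missed the threshold. Ces1f, a carboxylesterase, had a log2 fold change of 0.49 ± 0.1074 (adjusted p = 0.256, edgeR), C920025E04Rik 0.43, Rpl22l1, a ribosomal protein paralog, 0.40, Morf4l1, a chromatin reader, 0.27 and Mettl21a, a methyltransferase of HSP70, 0.17. On the lower side Bcl6, a transcriptional repressor, had -0.26, Nr2f2, a nuclear receptor, -0.15 and Stau1, an RNA-binding protein, -0.12.

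Nqo1 at day 5 had 9.99, 12.9 and 24.2 CPM in the low-dose libraries, against 7.60, 11.7 and 18.1 CPM in VC. Its ranges overlapped, with 19 of 24 low-dose libraries above the VC median, and the log2 fold change was 0.23 ± 0.0873 (unadjusted p = 0.0139, adjusted p = 0.851, edgeR). Slc7a11 had 11.3, 13.8 and 20.6 CPM in the low-dose libraries, against 12.8, 15.8 and 18.5 CPM in VC, with 3 of 24 above the VC median (log2 fold change -0.17, adjusted p = 0.851, edgeR). Gstm1 had -0.11 (adjusted p = 0.994, edgeR), and 150 ppm male 98 had its highest level, 557 CPM. Of the 13 NRF2 targets tested at day 5, none passed, 8 were above 0 and the median was 0.02. All 14 heat shock chaperones were below 0 (median -0.18), with none past the threshold. Without VC male 82, whose summed level of 5186 CPM was the highest beside a VC median of 2616 CPM, 5 of 14 were above 0 and the median was -0.06. Cyp1b1 had a log2 fold change of 0.10 (adjusted p = 0.997, edgeR).

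The difference between days was tested on all 72 libraries. The effect of the low doses was more positive at day 28 in 14 genes and more negative in 11 of 15504 (0.161% in all, 0.0903% and 0.0709% by direction, edgeR). Ybx1 differed most by adjusted p: its log2 fold change was 0.27 at day 28 and -0.13 at day 5, a difference of 0.40 ± 0.072 (adjusted p = 0.00645, edgeR). Slc7a11 differed by 0.52 ± 0.0965 (adjusted p = 0.00722, edgeR) and Myl12b by 0.35 ± 0.0703 (adjusted p = 0.0157, edgeR). Morf4l1 went the other way, with -0.18 at day 28 and 0.27 at day 5, a difference of -0.45 ± 0.0895 (adjusted p = 0.0157, edgeR). For Nqo1 no difference was shown (0.19, with a 95% interval of -0.0375 to 0.4252, adjusted p = 0.633, edgeR), nor for Gstm1 (0.33, adjusted p = 0.125) or Ces1g (0.05, adjusted p = 0.971). Without number 98 the counts were 83 and 32 (0.742%). The days are separate tables and other animals, so day and table cannot be told apart.

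The sexes were not shown to differ. No gene passed the test of the difference of the effect, males minus females, at day 5 (0 of 15408, 0.0%, 804 at an unadjusted p under 0.05) or at day 28 (0 of 15407, 0.0%, 485 at an unadjusted p under 0.05), and DESeq2 gave 0 at both days. The genes with the smallest p were Asprv1 (log2 difference 9.59, adjusted p = 0.908, edgeR) and Tgm3 (10.6, adjusted p = 0.908, edgeR) at day 5, both of cornified epithelium. Asprv1 reached 372 CPM in 1 of the 300 ppm males and 182 CPM in VC female 90, the libraries with the high muscle and squamous oesophagus markers. At day 28 they were Gm1965 (-1.72, adjusted p = 0.729, edgeR) and Fam221b (-2.36, adjusted p = 1, edgeR). For Nqo1 the difference was -0.13 at day 5 (95% interval -0.4667 to 0.2138) and -0.08 at day 28 (95% interval -0.3896 to 0.2245). Fitted alone, neither sex gave a call at either day.

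Pooling the doses put together libraries that differed from each other. At day 5, 628 genes were higher and 611 lower at 300 ppm than at 150 ppm (8.12% of 15253 in all, 4.12% higher and 4.01% lower, edgeR), and at day 28, 5 were higher and 45 lower (0.328% of 15240 in all, 0.0328% higher and 0.295% lower, edgeR). These changes went with exon length. Across genes, which are not independent replicates, the fold change had a Spearman correlation with exon length of 0.474 at day 5 and 0.469 at day 28, and at day 5 the median length of the called genes was 9320 bases for higher and 2410 for lower ones, beside 4300 for all genes. With the length trend removed, the counts were 243 higher and 294 lower at day 5 (3.66%) and 0 at day 28 (0.0%). Without number 98 they were 379 higher and 296 lower at day 5 (4.41%), and with both steps 200 genes in all (1.36%). For the pooled low doses against VC, the correlation with exon length was -0.0804 at day 5 and -0.165 at day 28. The genes called in that comparison at day 28 had a median length of 2530 bases for higher and 3260 for lower ones.

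At day 5, Ubb, a ubiquitin gene, had a log2 fold change of -0.46 (adjusted p = 0.000503, edgeR), and Lama2, a laminin chain of basement membrane, one of 0.68 (adjusted p = 0.00508, edgeR). Nr5a2, a nuclear receptor (0.97, adjusted p = 0.00661), and Atm, the DNA break kinase (0.41, adjusted p = 0.00661), were higher too, and all 4 also passed with the length trend removed and number 98 left out. Airway markers were lower at 300 ppm: 6 of 8 club cell genes and 8 of 10 ciliated genes passed, against 3 and 5 without number 98, 1 and 3 with the length trend removed and none with both. At day 28, Rps21 (-0.48, adjusted p = 0.018, edgeR), the immunoproteasome subunits Psmb8 (-0.30) and Psmb9 (-0.32) and H2-Ea-ps (-0.38) led the calls. Of the MHC class II list, 3 of 8 genes passed, H2-Aa (-0.34), H2-Ab1 (-0.32) and H2-DMa (-0.29). None of these day 28 calls passed with the length trend removed. The NRF2 targets were not shown to differ by dose: none of 13 passed at either day, and Nqo1 had a difference of 0.18 at day 5 (adjusted p = 0.222, edgeR) and -0.08 at day 28.

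Against VC alone, 150 ppm gave no call at either day (0 of 15133 at day 5 and 0 of 15096 at day 28, 0.0%), and 300 ppm gave 178 calls at day 5 (1.17%), 54 of them higher, and 10 higher and 15 lower at day 28 (0.165%). The following values come from 1 fit a day over all doses, and the doses share their VC libraries. For Nqo1 at day 28 the log2 fold change over VC was 0.46 at 150 ppm (adjusted p = 0.0472), 0.38 at 300 ppm (adjusted p = 0.0359), 0.84 at 1250 ppm (adjusted p = 3.67e-09) and 0.68 at 2500 ppm (adjusted p = 4.22e-06), by edgeR. At day 5 it was 0.14, 0.31, 0.41 and 0.65 in the same order, with adjusted p under 0.05 at 1250 ppm (0.0218) and 2500 ppm (0.000511). In this fit Nqo1 passed at each feed dose at day 28, while with the 150 ppm and VC libraries alone it did not (adjusted p = 0.227, edgeR). Slc7a11 at day 28 had 0.31, 0.39, 0.28 and 0.38 over those doses (adjusted p = 0.179, 0.00945, 0.0297 and 0.0142, edgeR), and Gstm1 had 0.20, 0.23, 0.26 and 0.24 (adjusted p = 0.179, 0.0398, 0.0141 and 0.0436, edgeR). Ces1g, uncalled in the pooled comparison, had 0.57, 0.61, 0.94 and 0.65 at day 28, with adjusted p = 0.0466 at 300 ppm and 0.000467 at 1250 ppm (edgeR).

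**Figure D5:**
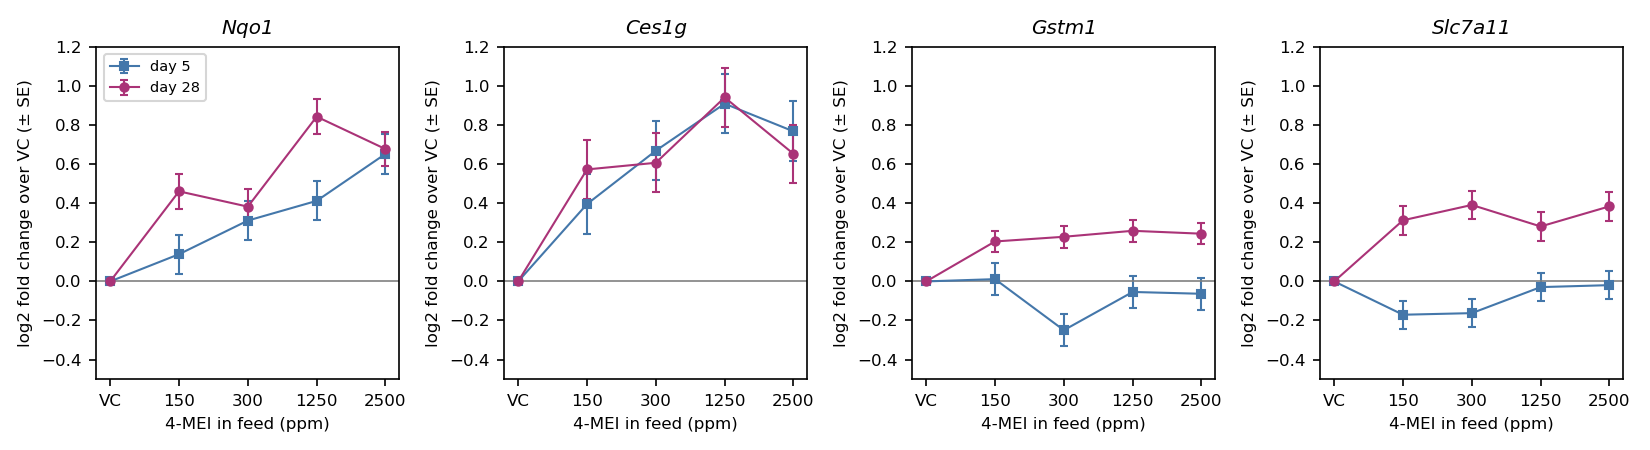
Log2 fold change over VC with its standard error of Nqo1, Ces1g, Gstm1 and Slc7a11 by feed dose (x axis, VC then 150, 300, 1250 and 2500 ppm, evenly spaced; blue squares day 5, purple circles day 28), from 1 fit a day over all doses that share the VC libraries. Nqo1 at day 28 is near 0.4 at the lower doses and 0.84 at 1250 ppm, while Gstm1 and Slc7a11 lie between 0.20 and 0.39 at day 28 and at or below 0.01 at day 5.

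Liver of the same feed groups gave no call at day 5 (0 of 12477, 0.0%, 503 at an unadjusted p under 0.05) or day 28 (0 of 12523, 0.0%, 821 at an unadjusted p under 0.05), while DESeq2 gave 0 and 6 (0.0479%). In liver at day 28, Nqo1 had a log2 fold change of 0.33 (unadjusted p = 0.00204, adjusted p = 0.701, edgeR). All 12 NRF2 targets tested were above 0 there, with a median of 0.12 beside 0.00135 for all genes, and none was past the threshold. The list is the one used in lung, chosen with earlier results known, so these values are no independent support. The difference between lung and liver was not tested.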

How the data were processed

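Per the labels' protocols, total RNA went through the TruSeq Stranded mRNA HT kit. Per the submitters' processing notes, reads were handled with Trimmomatic, Bowtie2, SAMtools and HTSeq on mm10; no source used here states versions, annotation or strand setting. The authors deposited raw counts for 24421 gene symbols per tissue and day. The tables are not normalised. The 1 unnamed column of the day 28 lung table was not used.

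Each lung day was fitted alone with edgeR 4.0.16 in R 4.3.3 (filterByExpr, TMM, robust glmQLFit and glmQLFTest), with low dose and sex as factors and Benjamini-Hochberg adjustment over all genes tested, threshold 0.05. Standard errors are |log2 fold change| over the root of F. CPM values used TMM library sizes. Single library measures were compared with permutation tests (100000 resamples, exact under 10). Scripts were tested on simulated counts. Genes were named by rule: all genes past the threshold where 30 or fewer passed, the 5 smallest p in each direction where fewer than 5 passed, the 4 smallest adjusted p of each tested difference (2 if none passed), and Nqo1 and Cyp1b1; members of lists are given besides. Of the 26 genes called at day 28, 1 is not reported here. The libraries, gene lists and tests were chosen with earlier results of these data known. Alternatives were RLE size factors, no filter, DESeq2 1.42.0 and the place of a library within blocks of 8 numbers. Others were single doses, single sexes, all libraries of a table, and each library left out. Each group of 1 dose and sex filled its own block of numbers, so the place within a block does not adjust for differences between blocks. Dose and number order cannot be told apart. Removal of the exon length trend (GENCODE M21 lengths for 96.2% of genes) and leaving out number 98 were added after seeing the data.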

Additional observations from a re-analysis of the deposited data

Results flagged for a closer look

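Over groups of 6 libraries of 1 sex and dose, 72 checks were made for a library far from the others of its group, by the gap to its neighbour over the group's range, and 10 were met; chance flags about 1 in 20 groups. In lung at day 28, Serpina3k reached 1.99 CPM in 300 ppm male 199, Hspa1b 56.2 CPM in 150 ppm male 183 and Rpl35a 15.2 CPM in VC female 176. The summed hepatocyte markers reached 25.8 CPM in 300 ppm female 208. Skeletal muscle markers summed to 1603 CPM in VC female 176, 71.8 CPM in 150 ppm male 180 and 62.8 CPM in 300 ppm male 197 at day 28, and to 2373 CPM in 1 of the 300 ppm males and 1929 CPM in VC female 90 at day 5. The library total of VC male 84 at day 5 was 21473100 counts.

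The effect of the low doses differed between days in 25 genes by the test of that difference (0.161% of 15504 genes, edgeR, Benjamini-Hochberg adjusted p under 0.05). The difference of log2 fold change, day 28 minus day 5, was 0.40 in Ybx1, 0.52 in Slc7a11, -0.45 in Morf4l1 and 0.35 in Myl12b.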

How the results depend on the processing

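No paired analysis was possible because the groups compared share no replicate numbers. The main counts were 0 at day 5 and 26 at day 28, with ranges of 0 to 1 and 0 to 54 when 1 library was left out. Under DESeq2 the counts were 3 at day 5, 65 at day 28, 1861 and 428 for 300 against 150 ppm at days 5 and 28 and 6 in liver at day 28. With the length trend removed they were 2 at day 5, and 537 and 0 for 300 against 150 ppm. Without number 98 they were 1 at day 5, and 675 for 300 against 150 ppm (200 with the length trend removed too). With the place in the block as a linear term there were 323 for 300 against 150 ppm at day 28, and with 8 levels 13 at day 28. With no filter on low counts there were 3 for 300 against 150 ppm at day 28. The effect differed between days in 14 genes more positive and 11 more negative at day 28, which became 34 and 28 under DESeq2, 60 and 64 with the length trend removed, 83 and 32 without number 98, 6 and 6 with the place as a linear term and 6 and 8 with no filter. Day 28 gave 54 calls without number 176 and 0 with 150 ppm alone, males alone or females alone; day 5 gave 178 with 300 ppm alone. For each of these the cause was not tested, though a fit of a single dose or sex has fewer libraries by construction. Of the 26 genes called at day 28, 25 passed with RLE size factors, 24 with no filter, 22 under DESeq2 (the other 4 had no adjusted p there), 25 with the place as a linear term, 17 with the length trend removed (7 missed the threshold and 2 had no length), 15 with all libraries of the table in the fit, 11 with the place at 8 levels and 7 with 300 ppm alone. Cyp1b1, never called, changed sign at day 5 in males (-0.0302) and at day 28 with the place at 8 levels (0.0121), with 300 ppm alone (0.0189) and in males (0.10), on the log2 scale; with 1 library left out it ran from -0.10 to 0.15 at day 28, and the sign turned without VC female 171. Among library measures within a sex, low doses minus VC, the day 5 male total differed by -31571 counts, the day 5 female length slope by 0.0207, the day 5 female hepatocyte sum by -2.75 CPM, the number of genes with 10 or more counts at day 28 by -35.2 in males and 159.3 in females (exact permutation test, p = 0.0431) and the day 28 male hepatocyte sum by -14.2 CPM (exact permutation test, p = 0.0667). At this depth genes at the level of Ttr rest on few counts.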
